A study of Mus musculus with 14 samples.

Results

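The 10 endothelial genes Kdr, Flt1, Tek, Tie1, Eng, Cdh5, Pecam1, Esam, Emcn and Erg were followed as polyadenylated RNA in 14 whole mouse fetuses at embryonic day 12.5 (E12.5). They were chosen by name as genes that mark the cells lining blood vessels, and they are 10 of the 18132 named genes in the deposited table. All 10 were among the 17400 genes whose mean deposited value reached 10 and which were tested. The fetuses were wild type (WT), of the strain F1 C57BL/6Jx129S1/SvlmJ, and all had been injected as zygotes, cultured in the embryo medium KSOM and carried by pseudo-pregnant CD1 females. The injection held either nuclease-free water (vehicle) or, in the same water, a synthetic let-7f-5p microRNA (a mimic), in an amount that the submitters call stress-relevant. With vehicle there were 5 females and 4 males, and with let-7f 3 females and 2 males. The comparison asks whether one dose of the microRNA in the zygote was followed by a different level of these mRNAs in the mid-gestation fetus, and whether the difference depends on sex. No label ties a fetus to a dam or litter, so each p-value reflects how these individual fetuses differ and nothing wider.

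Endothelial cells form the first vessels by assembling from precursors and then extend them by sprouting. Vascular endothelial growth factors act through the receptor tyrosine kinase Kdr, while Flt1 binds the same ligands tightly and signals weakly, so that it limits the ligand that Kdr can bind. Tek is the receptor for angiopoietins, Tie1 is its partner receptor, long regarded as an orphan, and Eng is a co-receptor for BMP9 and BMP10 at the endothelial surface. Cdh5 (VE-cadherin), Pecam1 and Esam hold neighbouring endothelial cells together, Emcn is a sialomucin of capillary and venous endothelium, and Erg is an ETS-family transcription factor that maintains endothelial gene expression. In RNA from a whole fetus, fewer endothelial cells and less of an mRNA per endothelial cell cannot be told apart.

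The injected molecule and the only match to its seed found in the 10 genes are shown because a microRNA recognises its targets mainly through the seed. For each gene the longest annotated 3 prime untranslated region (UTR) was searched. In the mimic, the capitals mark bases 2 to 8, the seed. The mimic's sequence is identical to the mature let-7f-5p of RefSeq, where it appears in 2 entries. In the Esam site, taken from the GENCODE annotation of GRCm38, the capitals mark CTACCTC, the 7 bases complementary to the seed.
let-7f-5p mimic: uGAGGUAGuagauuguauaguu
Esam, chromosome 9, plus strand, bases 119 to 125 of the UTR: gtcctttgctcCTACCTCcttctattgtt
The base after the Esam match is C. The match was present in 1 of the 10 endothelial genes and in 1623 of the 15465 tested genes with an annotated UTR, which is 10.5%. No other endothelial gene held these letters in its longest annotated UTR. Such a match is a description of the sequence and does not show binding.

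The promoters of 2 pairs of genes are shown because the values of Kdr and Emcn ran in opposite directions across the fetuses while those of Flt1 and Tek ran together. RefSeq promoters (build GRCm38.p6, 250 bases before to 50 bases after the annotated start, printed on the gene's strand) matched 7 of the 10 genes by symbol, with 9 promoters in all. The capitals mark AGGAAG or CGGAAG on either strand, letters that hold the GGAA core to which ETS factors such as Erg bind.
Kdr, chr5:75978406-75978705, minus strand: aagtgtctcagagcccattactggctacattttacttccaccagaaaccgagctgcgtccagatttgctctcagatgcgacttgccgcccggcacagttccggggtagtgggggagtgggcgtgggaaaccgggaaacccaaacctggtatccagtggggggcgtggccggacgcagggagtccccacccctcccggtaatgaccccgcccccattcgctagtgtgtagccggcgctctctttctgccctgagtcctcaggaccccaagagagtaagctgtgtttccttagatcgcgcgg
Emcn, chr3:137340828-137341127, plus strand: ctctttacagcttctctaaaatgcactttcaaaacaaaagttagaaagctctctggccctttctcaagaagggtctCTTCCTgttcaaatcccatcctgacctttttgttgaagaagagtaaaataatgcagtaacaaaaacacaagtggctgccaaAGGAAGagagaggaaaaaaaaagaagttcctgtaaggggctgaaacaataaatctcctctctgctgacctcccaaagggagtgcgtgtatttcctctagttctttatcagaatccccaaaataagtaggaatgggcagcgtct
Flt1, chr5:147725962-147726261, minus strand: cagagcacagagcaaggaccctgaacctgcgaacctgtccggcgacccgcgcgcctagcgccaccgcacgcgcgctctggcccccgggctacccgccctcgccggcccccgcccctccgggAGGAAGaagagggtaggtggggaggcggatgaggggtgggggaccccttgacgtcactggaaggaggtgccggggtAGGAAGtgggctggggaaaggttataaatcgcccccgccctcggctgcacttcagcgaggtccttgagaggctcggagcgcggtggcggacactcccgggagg
Tek, chr4:94739039-94739338, plus strand: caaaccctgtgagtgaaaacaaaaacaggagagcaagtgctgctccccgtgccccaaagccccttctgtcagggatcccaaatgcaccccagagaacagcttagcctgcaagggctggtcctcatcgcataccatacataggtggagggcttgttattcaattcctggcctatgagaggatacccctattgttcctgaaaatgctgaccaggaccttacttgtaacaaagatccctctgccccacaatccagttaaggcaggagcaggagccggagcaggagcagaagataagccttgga
Emcn and Flt1 each held 2 matches, and Kdr and Tek held none. The shorter core GGAA, or TTCC on the other strand, does occur in the Kdr and Tek promoters outside such matches. Of the genes not printed, Eng held 2, Tie1 held 3 and Erg held 1, in one of its 3 promoters. At least 1 match was present in 5 of the 9 endothelial promoters and in 46.5% of the 32851 RefSeq promoters of this length. At least 2 matches were present in 15.9% of those promoters and at least 3 in 4.71%. In each printed pair one gene held AGGAAG or CGGAAG and the other did not, which does not mean that the other lacks the GGAA core.

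The libraries held between 27709934 and 42898166 reads, the fewest in let-7f male 1. The deposited values are reads divided by 1 factor per library, so they compare a gene across fetuses but not different genes, which differ in length. Several libraries stood apart. In let-7f male 1 one read was worth 1.76 units of the deposited value, against 0.794 to 1.07 in the other 13 libraries, so its place among the fetuses depends on this factor. An alternative chosen after the data were seen scaled each library to its total of reads instead (CPM, the usual scaling of counts to the library total), and it moved the median change of all tested genes by -0.24 (log2) in males, by -0.10 for the mean of both sexes and by -0.29 for the difference between the sexes. Changes under that scaling are read relative to these shifts. Ribosomal protein mRNAs took 14.5% of the reads of let-7f male 1 and 8.91% of those of vehicle male 2, against a median of 4.26% over the 14 libraries. The summed trophoblast markers reached 428 in vehicle male 1 against 46.7 to 106 in the others, with only 3 of the 8 listed genes tested and with the hormone genes Prl3b1 and Prl2c2 at 0 in some libraries. The summed fetal liver markers were 1429 in vehicle female 2 against 60443 at the median. Each of the 10 endothelial genes was detected in every fetus, with at least 317 reads. Together they took 0.0279% to 0.0464% of the reads.

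Per kilobase of the longest annotated coding transcript, the mean level over the 14 fetuses was highest for Cdh5 (621), followed by Pecam1 (563), Tie1 (483), Kdr (416), Eng (380), Esam (370), Erg (274), Emcn (236), Tek (199) and Flt1 (145). The junction cadherin and Pecam1 thus led the order and the decoy receptor Flt1 closed it. In vehicle females the intervals of mean ± SD of neighbours in this order overlapped, as for Cdh5 at 601 ± 224 and Pecam1 at 535 ± 29.0 (SD, n = 5 each), with 2 exceptions. Esam (370 ± 26.9) stood apart from Erg (261 ± 30.4), and Tek (190 ± 27.5) from Flt1 (137 ± 15.2; SD, n = 5 each). With the median transcript in place of the longest, Erg stood at 430 per kilobase, above Kdr, Eng and Esam, and Emcn at 309, so the places of these genes depend on the isoform assumed.

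**Figure D1:**
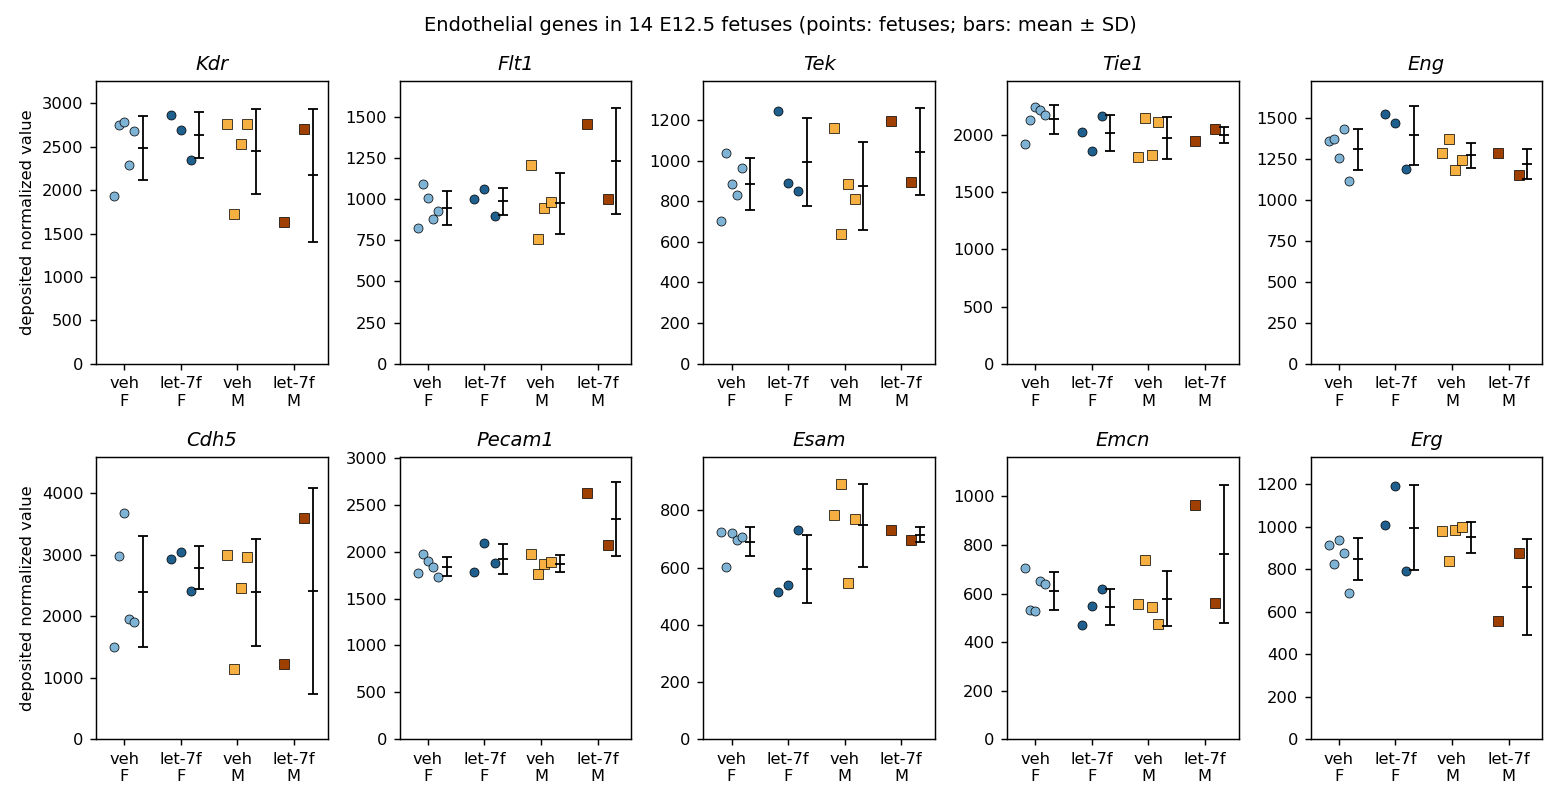
Deposited normalized value of each endothelial gene (vertical axes, starting at 0) in the 4 groups (veh, vehicle; F, females; M, males); each point is 1 fetus and the bars are the mean ± SD. The groups overlap for every gene in females, and in males for every gene except Pecam1, whose 2 let-7f values of 2067 and 2622 lie above the 4 vehicle values; in CPM the Pecam1 groups overlap.

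Among the VEGF receptors, Kdr had values of 1932, 2749, 2785, 2292 and 2676 in the vehicle females and 2863, 2698 and 2348 in the let-7f females. In males Kdr stood at 2766, 1724, 2530 and 2763 with vehicle and at 1629 and 2709 with let-7f. Low values occurred on both arms, in vehicle male 2, vehicle female 1 and let-7f male 1, and the groups overlapped in females and in males. The difference, let-7f minus vehicle on the log2(value + 1) scale, was 0.09 ± 0.20 (SE) in females and -0.19 ± 0.24 (SE) in males. It did not pass the test in either sex, with adjusted p = 0.9998 and 0.693 (limma, Benjamini-Hochberg over 17400 genes). Without let-7f male 1 the male difference was 0.17.

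Flt1, the receptor that restrains VEGF, had values of 824, 1089, 1008, 880 and 927 in vehicle females against 1003, 1059 and 899 in let-7f females. In males the values were 1208, 759, 947 and 981 with vehicle and 1456 and 1001 with let-7f. The value of let-7f male 1 was the highest of all 14 fetuses, but in CPM it was the fourth highest, at 29.8 against 36.2 in vehicle male 1, and the other let-7f male lay inside the vehicle range. The log2 difference was 0.07 ± 0.17 (SE) in females and 0.33 ± 0.20 (SE) in males, and the adjusted p in males was 0.461 (limma). The male difference was 0.06 without let-7f male 1 and 0.60 without let-7f male 2. The ratio of Flt1 to Kdr, the decoy to the signalling receptor, lay between 0.346 and 0.440 in 13 fetuses and was 0.894 in let-7f male 1. The deposited values are per gene, so soluble and membrane-bound forms of Flt1 were not separated.

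Of the angiopoietin receptors, Tek ranged from 639 to 1161 in vehicle males and read 1195 and 894 in let-7f males. In females Tek ranged from 704 to 1038 with vehicle and from 848 to 1243 with let-7f. The log2 differences of Tek were 0.16 ± 0.20 (SE) in females and 0.28 ± 0.24 (SE) in males, and the male value was 0.07 without let-7f male 1 and 0.48 without let-7f male 2. On the deposited scale Tie1, in contrast, was nearly level over all fetuses, from 1805 to 2242, a coefficient of variation of 7.28%, while in CPM let-7f male 1 was lowest at 39.9 against 53.8 to 63.9 in the others. The SD of its log2 values lay at the 2.28th percentile of the tested genes. Its log2 differences were -0.08 ± 0.11 (SE) in females and 0.02 ± 0.12 (SE) in males, with 95% intervals from -0.31 to 0.14 and from -0.25 to 0.29. With scaling to total reads the male difference was -0.22, where the median of all tested genes moved by -0.24. The co-receptor Eng ranged from 1114 to 1525 on the deposited scale and also varied little there, at the 6.26th percentile. In CPM let-7f male 1 was again lowest, at 26.3 against 31.3 to 44.8 in the others. The log2 differences of Eng were 0.09 ± 0.12 (SE) in females and -0.06 ± 0.14 (SE) in males.

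Among the junction genes, Cdh5 was the most variable of the 10, with a coefficient of variation of 33.3% and an SD at the 79.7th percentile. Its values were 1493, 2974, 3672, 1960 and 1903 in vehicle females and 2929, 3043 and 2403 in let-7f females. In males they were 2993, 1139, 2467 and 2961 with vehicle and 1222 and 3593 with let-7f. The lowest and the highest Cdh5 values were both vehicle fetuses, a 3.22-fold range within one treatment. The log2 difference was 0.29 ± 0.40 (SE) in females and -0.09 ± 0.47 (SE) in males, and the male 95% interval reached from -1.11 to 0.92. The male difference was 0.69 without let-7f male 1 and -0.87 without let-7f male 2, so that each of the 2 let-7f males decided its sign.

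Pecam1, an adhesion receptor that is also made by platelets and some leukocytes, had values of 1767, 1977, 1896, 1833 and 1728 in vehicle females and 1785, 2094 and 1878 in let-7f females. In males Pecam1 read 1972, 1757, 1867 and 1890 with vehicle and 2622 and 2067 with let-7f. Both let-7f males lay above all 4 vehicle males, while the female groups overlapped. In CPM the male groups overlapped too, with 53.7 and 59.3 for let-7f against 46.4 to 59.0 for vehicle. The male difference was 0.07 with that scaling, which moved the median change of all tested genes by -0.24. The log2 difference in males was 0.32 ± 0.13 (SE), with unadjusted p = 0.028 and adjusted p = 0.447 (limma), so it did not pass the test over all genes. It was 0.14 without let-7f male 1. In females it was 0.06 ± 0.11 (SE), and over the mean of both sexes 0.19 ± 0.08 (SE; adjusted p = 0.947, limma). The difference between the sexes in this change was 0.26 ± 0.17 (SE; adjusted p = 0.531, limma). Markers of megakaryocytes and platelets, all 6 of 6 detected, summed to 6218 in let-7f male 1 and 1661 in let-7f male 2, against 1113 to 3367 in vehicle males. Their part in the Pecam1 value was not tested.

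Esam, a junction protein that platelets also carry, was the one gene of the 10 with a let-7 seed match. Its values were 725, 603, 721, 698 and 707 in vehicle females and 516, 538 and 733 in let-7f females. In males they were 783, 893, 546 and 771 with vehicle and 733 and 696 with let-7f. In females 2 of the 3 let-7f values were below all vehicle values and the third was above them. The log2 difference was -0.23 ± 0.17 (SE) in females and -0.04 ± 0.20 (SE) in males, with adjusted p = 0.9998 and 0.921 (limma).

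Emcn had values of 706, 532, 528, 650 and 641 in vehicle females and 471, 547 and 618 in let-7f females. In males it read 557, 739, 544 and 474 with vehicle and 964 and 562 with let-7f. The value of let-7f male 1 was the highest of all fetuses, though in CPM it came after vehicle female 1, and the fetuses with low Kdr and Cdh5 were those with high Emcn. The log2 difference was -0.16 ± 0.20 (SE) in females and 0.37 ± 0.23 (SE) in males, with adjusted p = 0.9998 and 0.473 (limma). Without let-7f male 1 the male difference was -0.02.

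Erg, the transcription factor of the group, had values of 914, 825, 940, 875 and 690 in vehicle females and 1008, 1190 and 790 in let-7f females. In males Erg read 982, 841, 983 and 997 with vehicle and 559 and 876 with let-7f. The highest Erg value was a let-7f female and the lowest was let-7f male 1, with 317 reads, and one let-7f male lay within the vehicle range. The log2 difference was 0.22 ± 0.17 (SE) in females and -0.44 ± 0.20 (SE) in males, and the latter had unadjusted p = 0.052 and adjusted p = 0.447 (limma). The male change minus the female change was -0.66 ± 0.27 (SE), the one sex difference among the 10 with an unadjusted p below 0.05 (0.029), and its adjusted p was 0.522 (limma).

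**Figure D2:**
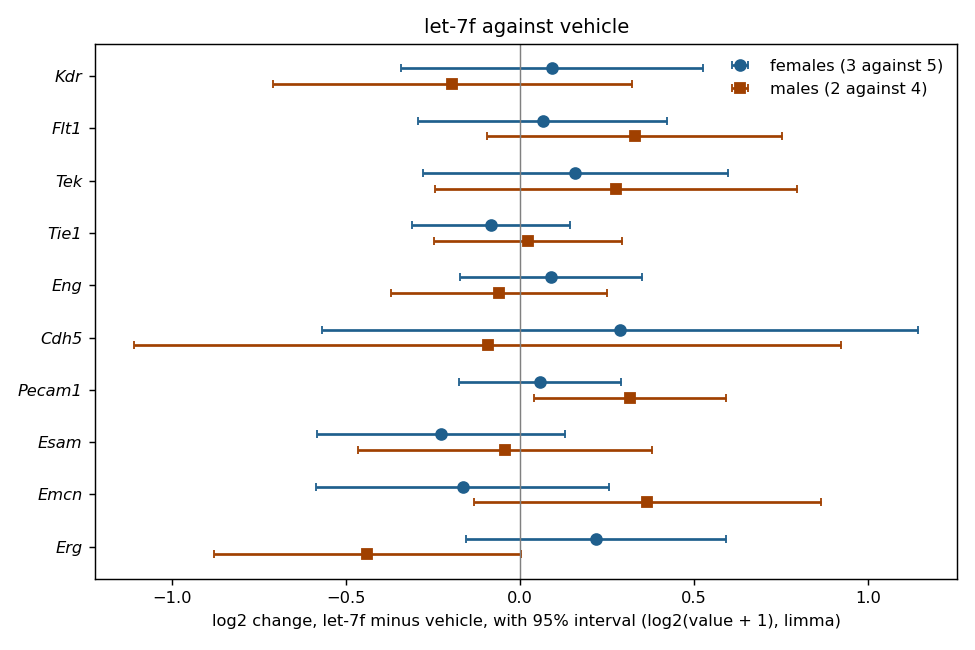
Log2 change of each endothelial gene, let-7f minus vehicle (horizontal axis, log2(value + 1) scale), with the 95% interval of the limma fit, in females (circles, 3 against 5 fetuses) and males (squares, 2 against 4 fetuses). Every female interval includes 0, and of the male intervals that of Pecam1, from 0.04 to 0.59, does not.

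Counted together, 0 of the 10 genes passed the adjusted threshold of 0.05 between let-7f and vehicle in either sex. In females the background among all tested genes was 0.00575% by limma, 0% by edgeR and 0.0115% by DESeq2, and 0 of the 10 genes were called by any of these tools. At an unadjusted p under 0.05, 0 of the 10 were called in females, where the background was 0.81%. In males the background was 0% by limma, 0% by edgeR and 0.333% by DESeq2, and again 0 of the 10 were called. At an unadjusted p under 0.05, Pecam1 was called in males, 1 of 10, where the background was 10.8%. For the mean of both sexes the background was 0% by limma, 0% by edgeR and 0.046% by DESeq2, with 0 of the 10 called, and Pecam1 alone had an unadjusted p under 0.05 against a background of 2.78%. In males the share was near the background, and for the mean of both sexes it rests on 1 gene.

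A sex difference in the response to let-7f was called for 0 of the 10 genes by limma (background 0%), edgeR (0%) and DESeq2 (0.138%), and Erg alone had an unadjusted p under 0.05 where 8.53% of all tested genes did. Between vehicle males and vehicle females, 0 of the 10 were called by limma (background 0.0402%), edgeR (0.0287%) or DESeq2 (0.069%). At an unadjusted p under 0.05, 0 of the 10 were called between the sexes, where the background was 2.63%. Their sex differences, males minus females, ran from -0.12 for Tie1 to 0.17 for Erg on the log2 scale.

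By overlap of the deposited values, 0 of the 10 genes separated the let-7f females from the vehicle females, against 1.49% of tested genes, and 1 of the 10, Pecam1, separated the males, against 10%. In CPM Eng, with both let-7f males below the vehicle males, took the place of Pecam1, again 1 of the 10, where 10.2% of tested genes separated the males. Of all tested genes the let-7f males lay below for 1452 and above for 327 in CPM. On the deposited scale these counts were 1026 and 720, so the direction of Eng went with that of most separating genes. The median log2 change of the 10 genes was 0.08 in females and -0.01 in males, beside medians of -0.0039 and -0.0019 over all tested genes. With scaling to total reads the male median of the 10 was -0.25, and that scaling moved the male median of all tested genes by -0.24. In females 7 of the 10 estimates were above 0, and in males 5 were. The sum of the 10 values ran from 12014 to 15934, and its mean was 14155 ± 1445 (SD, n = 5) with vehicle and 14878 ± 866 (SD, n = 3) with let-7f in females, and 14077 ± 1556 (SD, n = 4) and 14608 ± 1408 (SD, n = 2) in males. The 4 groups of sums overlapped. As a share of reads the male direction was the other way. The 10 genes took 0.0279% and 0.0447% in let-7f males, against 0.0317% to 0.0464% in vehicle males. The medians were 0.0363% and 0.0422%, and the ranges overlapped. The lowest share of the 14 was that of let-7f male 1, so the direction of the male sums depends on the scaling.

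The male results rest on 2 let-7f fetuses. When let-7f male 2 was left out, the other let-7f male stood by itself and its spread had to be taken from the remaining groups; then Pecam1 (0.49, adjusted p = 0.028), Emcn (0.76, adjusted p = 0.043) and Erg (-0.76, adjusted p = 0.029) were called in males by limma. In that fit 4390 of the 17400 genes were called, so the 3 genes stood among a wide difference between 1 library and the vehicle males. In the same fit the sex difference was called for Emcn (0.92, adjusted p = 0.049) and Erg (-0.98, adjusted p = 0.030), among 3206 genes. Without let-7f male 1, 0 of the 10 were called, and the male changes were 0.14 for Pecam1, -0.02 for Emcn and -0.11 for Erg, with a sex difference of -0.33 for Erg.

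The 10 genes did not vary as one block across the fetuses. Over 14 fetuses the correlation of log2(value + 1) exceeded 0.5 in 5 of the 45 pairs and was under -0.5 in 3, with a median of -0.06, and in CPM in 16 and 5, with a median of 0.26. Kdr and Cdh5 ran together (r = 0.92, n = 14), as did Flt1 with Pecam1 (0.85) and Flt1 with Tek (0.82). Emcn ran opposite to Kdr (r = -0.91), to Cdh5 (-0.87) and to Erg (-0.76). The ratio of Kdr to Emcn accordingly moved from 1.69 in let-7f male 1 and 2.33 in vehicle male 2 to 6.08 in let-7f female 1. The points share library composition and are few, and the values are given as a description.

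Among the 9 vehicle fetuses alone, a larger group ran together. Flt1 correlated with Kdr at 0.86, with Cdh5 at 0.86 and with Tek at 0.93, and Cdh5 with Pecam1 at 0.82 (n = 9). Over all 14 fetuses these values were 0.08, 0.19, 0.82 and -0.06, and in CPM 0.47, 0.59, 0.83 and 0.67. Leaving out let-7f male 1 and vehicle male 2 they were 0.78, 0.74, 0.72 and 0.71 (n = 12). In vehicle fetuses the receptors and adhesion genes Kdr, Flt1, Tek, Cdh5 and Pecam1 therefore varied in one direction and Emcn in the other, and in let-7f male 1 high deposited values of Flt1, Tek and Pecam1 stood beside low Kdr and Cdh5. In CPM, let-7f male 1 was at rank 4 for Flt1, 9 for Tek and 8 for Pecam1 from the highest of 14, and lowest for Kdr and Cdh5.

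**Figure D3:**
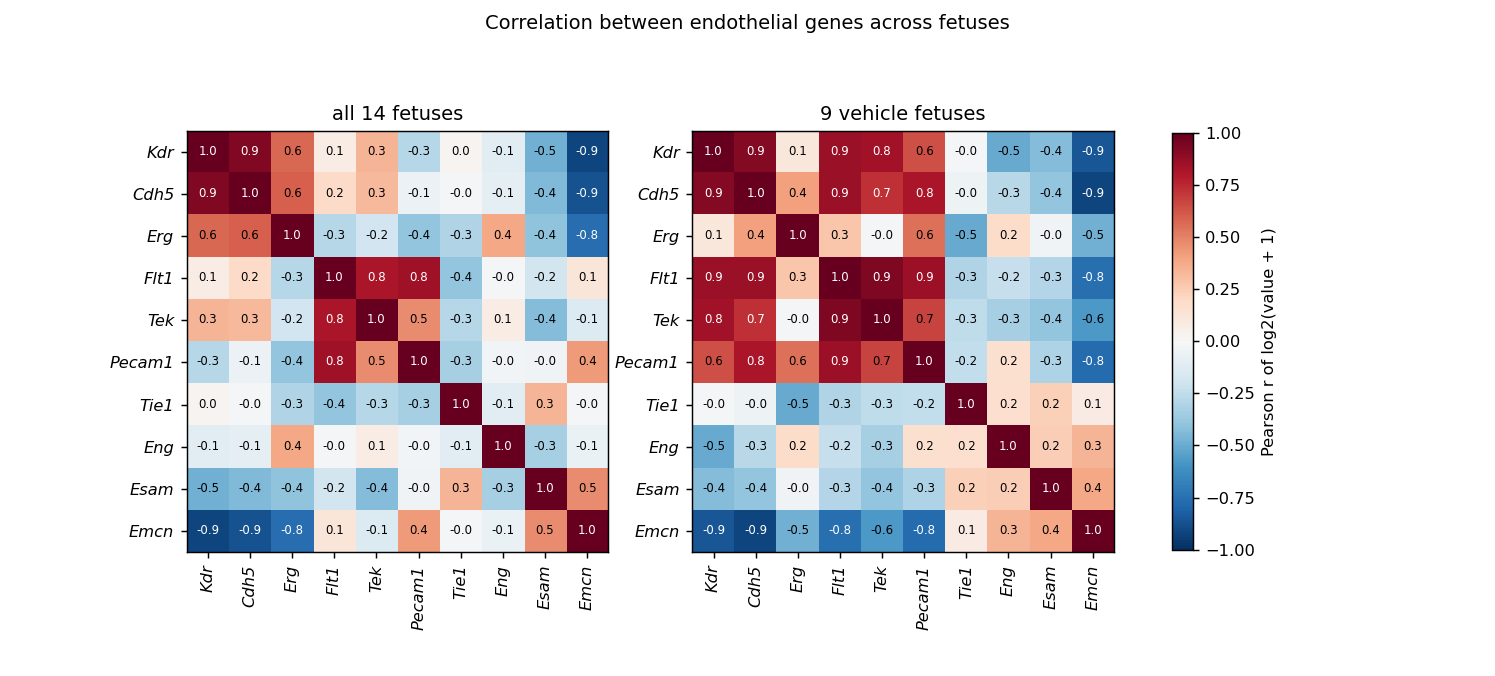
Pearson correlation of log2(value + 1) between the endothelial genes over 14 fetuses (left) and over the 9 vehicle fetuses (right); red is positive, blue is negative and each cell gives the value to 1 decimal. Kdr and Flt1 have r = 0.08 on the left (0.47 in CPM) and 0.86 on the right, while Kdr and Emcn are strongly negative in both panels.

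These patterns went with the ribosomal protein mRNA content of the library. A score, the mean log2 deviation of 80 cytosolic ribosomal protein genes from their mean over the libraries, ran from -0.53 in let-7f female 2 to 1.81 in let-7f male 1, with vehicle male 2 next at 0.90. Over 14 fetuses the correlation with this score was -0.93 for Kdr, -0.86 for Cdh5, -0.77 for Erg and 0.94 for Emcn, with rank correlations of -0.69, -0.77, -0.68 and 0.75. It was 0.49 for Esam, 0.45 for Pecam1 and 0.15 for Flt1, and between -0.09 and 0.08 for Tek, Tie1 and Eng. With the same score and the genes in CPM, Kdr (-0.98), Cdh5 (-0.92), Erg (-0.86) and Emcn (0.74) kept their sign. Esam (-0.08), Pecam1 (-0.51) and Flt1 (-0.45) turned, and Tek, Tie1 and Eng lay between -0.70 and -0.54. CPM lowers let-7f male 1, the library with the highest score, for every gene alike. The turns therefore cannot be read as particular to these genes, and the share over all tested genes in CPM is not given. Without let-7f male 1 and vehicle male 2 (n = 12), the 2 fetuses farthest from the median score, Kdr kept -0.84, Cdh5 -0.79 and Emcn 0.82, and Erg stood at -0.56. Such relations were common, since 48.2% of the 17400 tested genes had a correlation above 0.7 or below -0.7 with the score, beside 4 of the 10 endothelial genes. What sets the score was not tested.

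Among the 9 vehicle fetuses, 5 of the 10 genes had a correlation under -0.7 with the score: Cdh5 (-0.94), Kdr (-0.94), Flt1 (-0.87), Tek (-0.81) and Pecam1 (-0.77). The share over all tested genes was 26.0%. In the same 9 fetuses Emcn stood at 0.90, while Erg, at -0.77 over all 14 fetuses, stood at -0.37. Let-7f male 1, with the highest score, had the highest deposited Flt1 and Pecam1 values, so over all 14 fetuses the correlation was above 0 for these 2 of the 5 genes. In CPM, which lowers let-7f male 1 for every gene, it was below 0 for both. Their rank correlations on the deposited scale were also below 0, at -0.47 and -0.34. Among the 4530 tested genes under -0.7 in vehicle fetuses, 137, or 3.02%, were above 0 over all fetuses. Vehicle male 2, which had the next highest score, had the lowest Flt1 (759) and Tek (639) of all fetuses, while let-7f male 1 had 1456 and 1195. In CPM vehicle male 2 was again lowest, with 20.0 and 16.9 against 29.8 and 24.5 in let-7f male 1. This contrast sets 1 fetus against 1 and has no replicate.

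**Figure D4:**
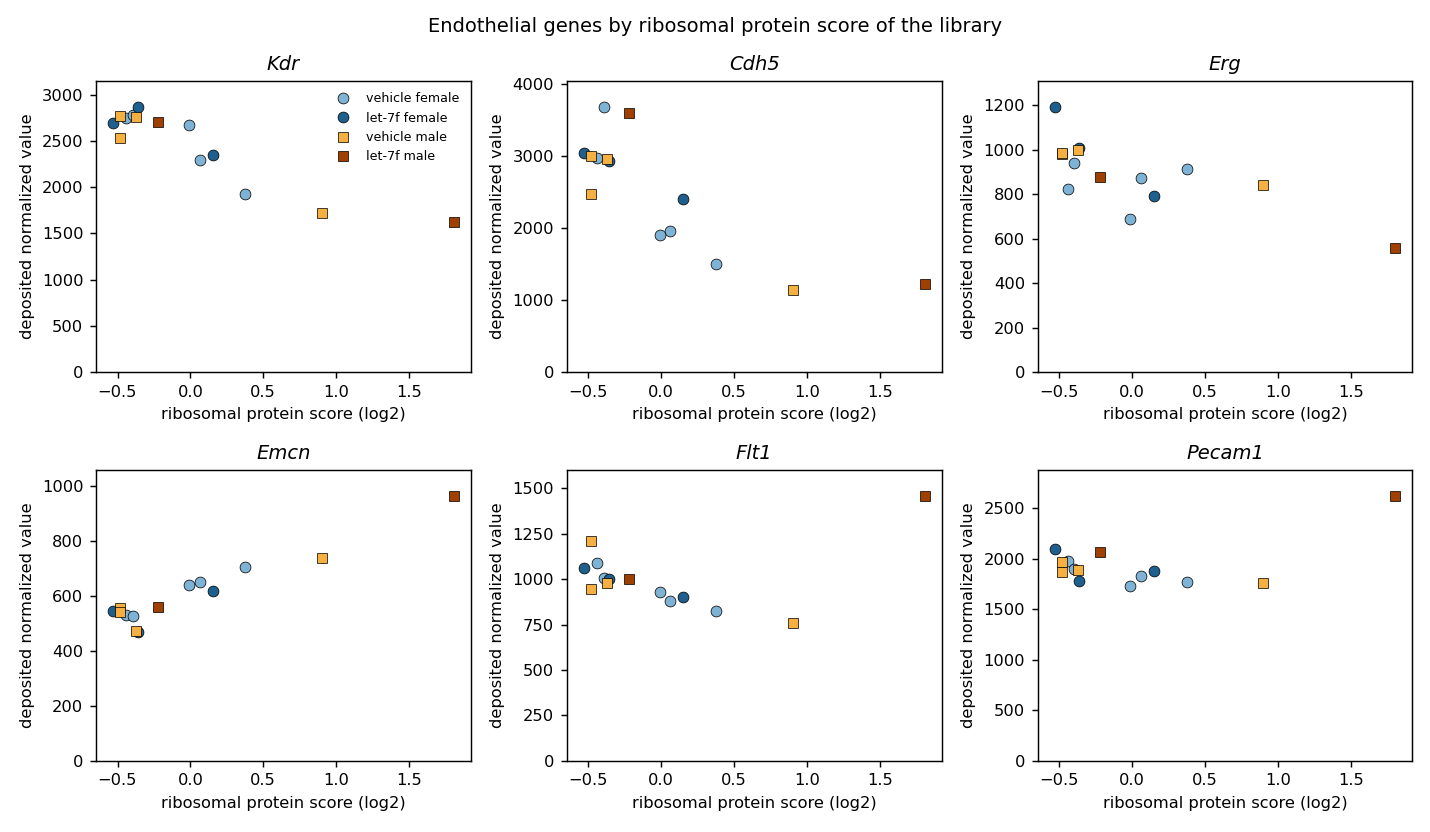
Deposited normalized value (vertical axes, from 0) of 6 endothelial genes against the ribosomal protein score of the library (horizontal axes, log2), each point 1 fetus (circles females, squares males; light vehicle, dark let-7f). Kdr and Cdh5 lie lower and Emcn higher at high scores, and for Flt1 and Pecam1 the let-7f male at a score of 1.81 lies above all other fetuses, which it does not in CPM.

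The direction of the relation went with transcript length. When the tested genes with an annotated coding transcript were split by length into 4 bins of nearly equal size, the median correlation with the score was 0.77 in the shortest bin, up to 2029 bases, then 0.14, -0.43 and, in the longest, from 4694 bases, -0.72. Esam (1865 bases), at 0.49, was in the shortest bin and Emcn (2588 bases), at 0.94, in the next. Kdr (5924 bases), at -0.93, and Flt1 (6895 bases), at 0.15, were in the longest, so Flt1 lay away from the median of its bin. The other 6 were in the bin between 3153 and 4692 bases, where their values ran from -0.86 for Cdh5 (3995 bases) to 0.45 for Pecam1 (3441 bases). Genes of like length thus differed, and on the deposited scale Tie1 (4234 bases) stayed level where Cdh5 did not. Whether transcript length itself accounts for the relation was not tested.

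**Figure D5:**
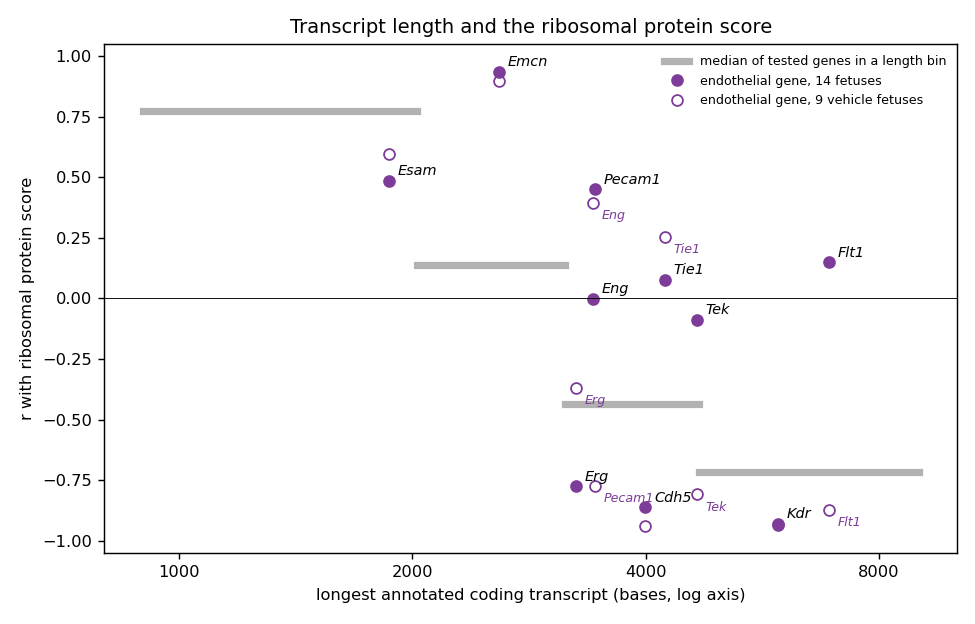
Correlation of each endothelial gene with the ribosomal protein score (vertical axis) against the length of its longest annotated coding transcript (horizontal axis, bases, log scale), over 14 fetuses (filled) and 9 vehicle fetuses (open); grey bars are the medians of all tested genes in 4 bins of length, cut short at both ends of the axis. Flt1 moves from 0.15 (-0.45 in CPM) to -0.87 when only vehicle fetuses are used, while Emcn and Kdr stay near 0.9 and -0.9.

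The rest of the pathway was read from lists of 98 further endothelial genes, of which 97 were tested. By limma none was called in females or males, and none had an unadjusted p under 0.05 in females, where the background was 0.81%. In males 5 of the 97 did, beside a background of 10.8%. Those were Lyve1, a hyaluronan receptor of lymphatic endothelium (-0.92 ± 0.39 SE), Klf4, a flow-responsive transcription factor (-0.56 ± 0.25), S1pr1, a sphingosine-1-phosphate receptor (-0.51 ± 0.22), Smad9, a BMP effector (-0.47 ± 0.21), and Robo4, an endothelial guidance receptor (0.45 ± 0.20), each with adjusted p = 0.447 (limma).

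Of the 9 further genes of the VEGF axis, 6 estimates were above 0 in females and 4 in males. Vegfa, the main ligand of Kdr, ranged from 2761 to 4099 over the fetuses, with log2 differences of 0.07 ± 0.13 (SE) in females and -0.08 ± 0.16 (SE) in males. Pgf, a ligand that binds Flt1 and not Kdr, read 1015 and 342 in let-7f males against 259 to 585 in vehicle males, a log2 difference of 0.77 ± 0.41 (SE; adjusted p = 0.447, limma). It correlated with the ribosomal protein score at 0.98 (n = 14). For Vegfb, Vegfc, the co-receptors Nrp1 and Nrp2 and the lymphatic receptor Flt4, the differences lay between -0.26 and 0.20 in females and between -0.17 and 0.20 in males. The smallest p in this list belonged to Vegfd in females (0.31 ± 0.18 SE) and to the semaphorin receptor Plxnd1 in males (-0.39 ± 0.18 SE).

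In the angiopoietin axis, Angpt1, the activating ligand of Tek, had values of 374 and 634 in let-7f males against 449 to 778 in vehicle males, a log2 difference of -0.43 ± 0.24 (SE; adjusted p = 0.447, limma). Angpt2, the context-dependent antagonist, was 164 ± 28.2 (SD, n = 4) with vehicle and 132 ± 10.3 (SD, n = 2) with let-7f in males, a log2 difference of -0.29 ± 0.19 (SE). Both let-7f males, at 125 and 140, lay below the 4 vehicle males, whose lowest value was 145. In males the groups did not overlap for 6 of the 97 genes, or 6.19%, against 10% of all tested genes. In CPM they did not overlap for 7, or 7.22%, against 10.2%, and those of Angpt2 overlapped. Klf4, Lyve1 and Robo4 separated the males on both scales. Ptprb, the phosphatase that restrains Tek, differed by 0.20 ± 0.33 (SE) in females and -0.33 ± 0.39 (SE) in males, and Svep1, an extracellular protein that binds Tie1, by 0.18 ± 0.22 (SE) in females. In the endoglin axis, the receptor Acvrl1 differed by 0.26 ± 0.20 (SE) in females and -0.38 ± 0.24 (SE) in males, and Tgfbr2 by 0.26 ± 0.24 and -0.58 ± 0.28 (SE). The ligand Gdf2 (BMP9), made by the liver, was 14.9 in vehicle female 2, the fetus with low liver markers, and 118 to 218 in the others. Bmp10, a ligand made by the heart, differed by -0.07 ± 0.26 (SE) in females and 0.25 ± 0.31 (SE) in males.

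In the remaining lists the genes with the smallest p in females were Jam3 (-0.18) and Icam2 (0.20) of the junctions, Mef2c (0.65) and Klf4 (0.31) of the transcription factors, Bmx (-0.41) and Cxcr4 (-0.29) of the arterial genes, Lyve1 (0.68) and Nr2f2 (-0.23) of the venous and lymphatic genes, and Apln (0.15) and Apold1 (0.15) of the others. In males they were Rasip1 (0.54) and Cldn5 (1.06), Klf4 (-0.56) and Tal1 (-0.43), Bmx (0.52) and Gja4 (0.43), Lyve1 (-0.92) and Stab2 (-0.999), and S1pr1 (-0.51) and Robo4 (0.45). None was called. Cldn5, a tight-junction claudin of endothelium, read 3025 in let-7f male 1, 1264 in vehicle male 2 and 438 to 866 in the other 12 fetuses. Of the 97 genes, 19 correlated above 0.7 with the ribosomal protein score and 35 below -0.7, beside 24.2% and 24.0% of all tested genes. Chosen after their values were seen, Cldn5 and the secreted factor Egfl7 stood at 0.99, and the arterial ligand Efnb2 at -0.97 and the receptor Cd93 at -0.95, so established endothelial genes lay at both ends as Emcn and Kdr did.

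Lists of other cell types went with the ribosomal protein score to differing degrees. The mean log2 deviation of the megakaryocyte and platelet list correlated with the score at 0.89 and that of the mesenchyme list at -0.88, the mural cell list at 0.01, macrophages at 0.47, erythroid cells at 0.58, fetal liver at 0.37, yolk sac endoderm at 0.33, trophoblast at -0.45 and neurons at -0.71 (n = 14). All 10 mural genes, which mark the pericytes and smooth muscle around vessels, were tested. Their deposited values summed to between 22268 and 25005 over the fetuses. The correlations and sums of these lists are on the deposited scale. They are not given in CPM, which lowers let-7f male 1 for every gene, so they may depend on the scaling. The part of these cells in the endothelial values was not tested.

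The pattern most like the mean of the 10 genes, by correlation over 14 fetuses among genes with a mean value of at least 50, belonged to Brd3 (r = 0.88), followed by Vwa5a, Ankrd12, Or2y16, Sh2d4b, Gm15725, Mmp15, Mon1b, Rxra and Nrg1 (r = 0.82). None of them is on the endothelial lists. The gene nearest to each single one was Nek9 for Kdr (0.99), Ankrd17 for Flt1 (0.95), Adgra1 for Tek (0.87), Fbxw8 for Tie1 (0.93), Galnt10 for Eng (0.80), Khdc4 for Cdh5 (0.96), Or4k6 for Pecam1 (0.93), Fancf for Esam (0.92), Dhps for Emcn (0.98) and Nfatc2 for Erg (0.95). These neighbours were named by their correlation alone.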

How the data were processed

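Per the labels' protocols, RNA of whole E12.5 fetuses was poly-A selected and made into stranded libraries. Per the submitters' processing notes, the tools were Trimmomatic 0.39, kallisto 0.50.1, FastQC 0.12.1, MultiQC 1.28 and DESeq2 1.48.2, with build GRCm39. The authors deposited 1 normalized signal per gene and fetus. In each library 100% of these values were whole reads divided by 1 factor (tolerance 1e-06), and recovered reads are those whole numbers. A row without a gene name held 0.0180% to 0.0334% of the reads and was left out.

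The main test was limma 3.58.1 (R 4.3.3) on log2(value + 1), with an intensity trend, a mean for each of the 4 groups, 10 residual degrees of freedom and Benjamini-Hochberg adjustment over 17400 genes; 732 genes with a mean value under 10 were not tested. edgeR 4.0.16 (quasi-likelihood) and DESeq2 1.42.0 on the recovered reads were alternatives. Scaling the recovered reads to the library total (CPM) was added after the data were seen. Fold changes on the log2(value + 1) scale understate low genes. Read counts of 317 or more give these genes a counting error of at most 5.62%, which covers counting error only. The procedure was tested on simulated data.

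The lowest chi-square per degree of freedom between 2 libraries of a group was 18.2 over 20 pairs, and all 14 libraries were kept as separate samples. The members and lists were chosen with earlier results of these data known. Named genes were the 10 members, the main ligands and receptors, the 2 genes with the smallest p of each list in each sex, and the 10 most similar patterns. Lengths, coordinates and UTRs come from GENCODE M21 (GRCm38), which is not the authors' build, and genes were matched by symbol.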

Additional observations from a re-analysis of the deposited data

Results flagged for a closer look

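Each of the 10 genes was examined in the 5 vehicle females and in the 4 vehicle males, which makes 20 sets of values. The let-7f groups, of 3 and 2 fetuses, were too small and were not examined. In these sets 2 values lay apart from the rest by Dixon's 95% critical value, where chance flags about 1 in 20 sets. The sets share the same fetuses and are not independent. Esam was lowest in vehicle female 2, at 603, against 698 to 725 in the other 4 vehicle females. Erg was lowest in vehicle male 2, at 841, against 982 to 997 in the other 3 vehicle males.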

How the results depend on the processing

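The count of 0 endothelial genes called held in females, for the mean of both sexes and between vehicle sexes under every alternative run. It held in males and for the sex difference except without let-7f male 2, where it was 3 and 2, so single libraries gave ranges of 0 to 3 in males and 0 to 2 for the sex difference. Of 614 single-gene values under alternatives for 22 results, 585 kept their direction without a call, 25 were reversed and 4 were newly called.

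Counts over all genes moved as follows. In females the 1 gene called became 0 with pseudocount 5, with edgeR, with only the groups compared, with the replicate block and with 5 libraries left out, 2 without a filter and with DESeq2, and 18 with library weights. The 5 were let-7f male 1 and replicates 1 and 2 of either vehicle sex, chosen because they stood apart. In males 0 became 1 with pseudocount 0.5 and 58 with DESeq2. DESeq2 called 8 for the mean of both sexes, 24 for the sex difference and 12 between vehicle sexes. Leaving out 1 library gave 0 to 1 in females, 0 to 4390 in males, 0 to 874 for the mean and 0 to 3206 for the sex difference. The highest of the last 3 came without let-7f male 2. The median change of the 10 genes then ranged from 0.0256 to 0.152 in females, -0.0285 to 0.0602 in males, 0.00196 to 0.0618 for the mean, 0.0481 to 0.155 for the sex difference and -0.0772 to 0.0784 between vehicle sexes. Library weights turned that of the sex difference to -0.0310. Scaling to total reads, chosen after seeing the data, gave -0.25 in males, -0.0456 for the mean and -0.17 for the sex difference. The median of all tested genes moved with it by -0.24, -0.10 and -0.29. The cause was not tested.

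In females Pecam1 was -0.0176 with library weights, and with 1 library left out Pecam1 ranged from -0.0056 to 0.110 and Tek from -0.0134 to 0.262. In males Cdh5 was 0.0069 with edgeR, 0.0184 with DESeq2, 0.0295 with the replicate block, 0.41 with 5 libraries left out and 0.71 with the ribosomal protein score as covariate. Under the last 2 settings Kdr was 0.0350 and 0.188. Esam was 0.0602 with library weights and 0.10 with 5 libraries left out. Tie1 was -0.0371 after rescaling to the 75th percentile, -0.22 with scaling to total reads and -0.000511 with the covariate. Scaling to total reads moved the male median of all tested genes by -0.24. With 1 library left out, male changes ranged from -0.87 to 0.69 for Cdh5, -0.56 to 0.17 for Kdr, -0.0229 to 0.756 for Emcn, -0.139 to 0.0171 for Eng, -0.187 to 0.0492 for Esam -0.0186 to 0.0661 for Tie1, 0.0597 to 0.599 for Flt1, 0.0664 to 0.485 for Tek, 0.144 to 0.487 for Pecam1 and -0.762 to -0.114 for Erg. The change of Pecam1 for the mean of both sexes ranged from 0.102 to 0.273 and the sex difference of Erg from -0.981 to -0.333. Female changes, none called, ranged from 0.137 to 0.461 for Cdh5, 0.00515 to 0.174 for Kdr, 0.0133 to 0.131 for Flt1, 0.0804 to 0.375 for Erg, 0.0202 to 0.200 for Eng, -0.259 to -0.0627 for Emcn, -0.386 to -0.133 for Esam and -0.137 to -0.0263 for Tie1. The level per kilobase was 430 for Erg and 309 for Emcn with the median transcript.

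Replicate numbers were not taken to pair the fetuses, since they are not said to. Over 16 same-number pairs the correlation of deviations ran from -0.58 to 0.35, with 5 over 0.1. Pairs of different number were not set beside them, so these values cannot decide whether the numbers pair. The replicate block changed no call of an endothelial gene. The number of let-7f fetuses limits the precision, which the printed intervals give.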
